A study of Mus musculus with 2 samples.

Results

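The genes described here belong to 3 families tied to cavitation, the filling of the embryo's inner space with fluid. They are Atp1b1 and Atp1b3, beta subunits of the sodium pump, the aquaporins Aqp3, Aqp8 and Aqp9, and the claudins Cldn4, Cldn6 and Cldn7. They were taken by gene symbol, and all 8 were found among the 23418 rows of the deposited table. The samples were mouse embryos of the C57BL/6 background, injected with an siRNA against Dnmt1 (siDnmt1) or with a scrambled siRNA. No uninjected embryos are among the samples used here. Each group was 1 library, made from 20 pooled embryos of 4 to 8 cells, whose polyadenylated RNA was amplified by 20 cycles of PCR. The series title names retroelements and their repression by Dnmt1, which restores DNA methylation on newly made strands. With 1 library per group no difference below has a replicate check. The 95% intervals cover counting error alone and treat each count as a separate molecule. Amplified copies were not told apart from separate molecules, so the intervals may be too narrow even for that error. In such bulk samples, fewer cells of a type and less RNA per cell cannot be told apart.

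A blastocyst forms its cavity by moving salt and water across its outer layer, the trophectoderm. The sodium pump, made of a catalytic alpha and a glycosylated beta subunit, drives sodium into the space between the cells, and water follows, in part through aquaporins. Claudins build the tight junctions that keep the fluid from leaking back. The embryos sampled here had not yet reached the stage at which a cavity opens, so the values describe transcripts present before that event.

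The libraries held 12236615 (siDnmt1) and 11675483 (scrambled) counts, of which the ribosomal RNA precursor Rn45s took 37.3% and 29.9%. The targeted gene, Dnmt1, had 687 and 847 counts, a ratio of 0.811 (interval 0.732 to 0.898). At or below the log2 ratio of Dnmt1 lay 38.3% of the compared genes, so its difference was no larger than the spread between these libraries. All 8 markers of cleavage-stage embryos were detected in at least 1 library, with summed counts of 1887 and 2748. Pou5f1 made up most of both sums (1489 and 2152). Tle6 (67 against 32) and Padi6 (51 against 29) were higher in siDnmt1. The other markers were lower, with Ooep at 0 in siDnmt1 and 15 in scrambled. All 8 markers of cumulus cells, which surround the egg, were at 0 in both libraries. Of 5 genes listed as oviduct markers, Epcam had 97 and 258 counts, and the other 4 held 0 and 3 counts in all. Which cells the Epcam counts came from was not tested.

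The upstream sequence of 4 members is shown because the siRNA was directed at the enzyme that maintains methylation at CG dinucleotides. Each run is the 250 bases before a RefSeq transcription start on GRCm38.p6, 5′ to 3′ on the gene's strand, with every CG in capitals. The deposited counts were made on mm9, so these coordinates belong to RefSeq and not to the count table. Where RefSeq gives 2 starts, the window that overlaps no GENCODE M21 exon is shown.
Cldn4, chr5:134946935-134947184, minus strand: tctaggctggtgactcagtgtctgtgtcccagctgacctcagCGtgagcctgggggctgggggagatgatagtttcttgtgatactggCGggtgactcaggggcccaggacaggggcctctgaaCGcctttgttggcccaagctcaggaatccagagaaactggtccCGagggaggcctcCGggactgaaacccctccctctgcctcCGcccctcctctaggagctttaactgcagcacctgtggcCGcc
Cldn7, chr11:69964529-69964778, plus strand: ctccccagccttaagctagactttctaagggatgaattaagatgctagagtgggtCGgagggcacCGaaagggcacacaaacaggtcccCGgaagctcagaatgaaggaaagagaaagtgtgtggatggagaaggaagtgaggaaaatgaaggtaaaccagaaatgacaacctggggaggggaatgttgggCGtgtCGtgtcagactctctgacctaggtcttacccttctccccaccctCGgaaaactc
Aqp3, chr4:41098184-41098433, minus strand: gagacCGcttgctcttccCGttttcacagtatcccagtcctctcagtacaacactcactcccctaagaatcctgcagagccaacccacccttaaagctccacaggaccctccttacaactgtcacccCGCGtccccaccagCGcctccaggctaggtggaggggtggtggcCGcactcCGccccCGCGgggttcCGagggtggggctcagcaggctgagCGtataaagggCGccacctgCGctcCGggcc
Aqp9, chr9:71162634-71162883, minus strand: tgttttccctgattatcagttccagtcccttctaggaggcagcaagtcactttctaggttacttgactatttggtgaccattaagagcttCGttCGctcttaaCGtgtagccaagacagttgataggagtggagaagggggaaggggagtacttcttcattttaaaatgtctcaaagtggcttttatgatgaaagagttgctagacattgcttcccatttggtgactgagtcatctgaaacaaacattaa
The Cldn4 window holds 7 CG and the Cldn7 window 6, near the median of 6 over 32851 RefSeq windows of this length. The Aqp3 window holds 14, more than 70.6% of windows, and the Aqp9 window 3. A second start of Cldn7 has 10 CG and a second start of Aqp9 has 1. Both pump genes were richest, with 24 CG at Atp1b1 and 24 and 35 at the 2 starts of Atp1b3. The windows of Cldn6 and Aqp8 hold 9 and 5. No DNA methylation was measured in these libraries.

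The same 250-base windows were searched on both strands for 5 short motifs. The cyclic AMP response element TGACGTCA, present in 1.55% of all windows, was found in Cldn6 and at the second start of Cldn7. It is printed below in capitals with 10 bases on each side, because these 2 claudins carry it at nearly the same distance from the start.
Cldn6, chr17:23679315-23679342, plus strand, first motif base 40 bases before the start: ggtggtccagTGACGTCAttgagacttt
Cldn7, chr11:69965373-69965400, plus strand, first motif base 38 bases before the start: gtcccttcagTGACGTCAggtcactcga
The E-box CACCTG, present in 17.2% of windows, was found in Cldn4, Aqp3 and Cldn6, at the second Cldn7 start and at 1 start of Atp1b3. The E-boxes of Cldn4 and Aqp3 begin 14 and 17 bases before the start. The TEAD motif GGAATG (12.6% of windows) was found in Aqp8 and at the first Cldn7 start. The TFAP2 motif GCCNNNGGC (13.7%) and the Grainyhead motif AACCNGTT (1.79%) were in none of the windows of the members. These matches are letters in a window and not evidence of binding.

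The comparison took in the 7315 genes whose counts averaged 20 or more over the pair of libraries, by log2((siDnmt1 + 5)/(scrambled + 5)). A gene was counted as apart when this value reached 2-fold. By that rule 29.1% of compared genes were apart, 12.5% higher in siDnmt1 and 16.7% lower. Of the 8 members, 6 passed the mean: Aqp3 was at least 2-fold higher, Cldn4 was at least 2-fold lower, and 4 lay within 2-fold. The share of members apart is thus near that of all genes. Their median log2 ratio was -0.14, against -0.02 over all compared genes. Atp1b1 and Aqp8 fell below the mean.

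**Figure D1:**
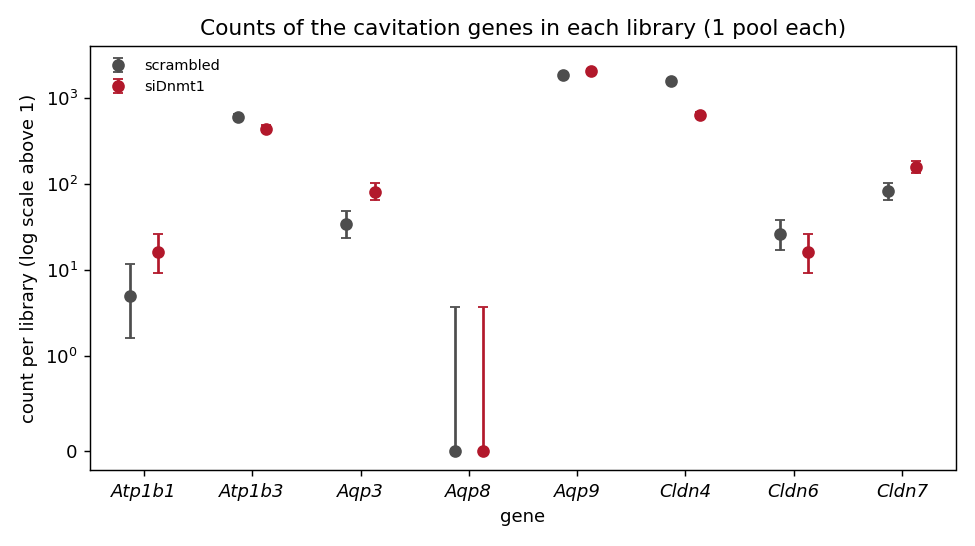
Counts of the 8 cavitation genes in the scrambled (grey) and siDnmt1 (red) libraries, 1 pool of embryos each, on an axis that is logarithmic above 1; bars are 95% Poisson intervals of counting error. Cldn4 lies lower in siDnmt1 (627 against 1565), Aqp3 and Cldn7 lie higher, and Aqp8 is at 0 in both.

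Among the pump genes, Atp1b3 had 434 counts in siDnmt1 and 601 in scrambled. It was the main beta subunit in both libraries. The ratio was 0.722 (0.637 to 0.818), that is 1.38-fold lower in siDnmt1, inside the 2-fold range. Its log2 ratio of -0.47 lay close to the -0.29 that the trend with transcript length gave for a transcript of 1994 nt, leaving -0.18. Atp1b1, the beta subunit that the mouse blastocyst needs to form its cavity, had 16 counts against 5. The ratio of 3.20 has an interval of 1.12 to 11.2. Exons of Atp1b1 share 575 bases with Nme7 on the other strand, and whether the counting used strand is not given in the sources used here, so these few reads are uncertain.

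Atp1b2, a beta subunit best known from brain, had 100 counts against 72, a ratio of 1.39 (1.02 to 1.91). The count of Atp1b3 per Atp1b2 was 4.34 in siDnmt1 (3.48 to 5.45) and 8.35 in scrambled (6.53 to 10.8). This quantity was 1.92-fold lower in siDnmt1 (1.37 to 2.71), a value that no scaling of the libraries can alter. Transcript length does not cancel in it: Atp1b3 has 1994 nt and Atp1b2 3751 nt, for which the length trend gave -0.29 and 0.01. With that trend removed, their log2 ratios were -0.18 and 0.43, closer together than before. With the trend on median transcript length removed they were -0.24 and 0.65. Of 12 other pump subunits and FXYD regulators examined, 8 had no count in either library. Only Atp1b2 passed the mean, within 2-fold.

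Per kb of transcript, which allows levels of different genes to be set side by side, the beta subunits kept their order. Atp1b3 stood at 218 counts per kb in siDnmt1 and 301 in scrambled. Atp1b2 stood at 26.7 and 19.2, and Atp1b1 at 6.20 and 1.94. Atp1b3 thus made up 86.9% of the 3 beta subunits in siDnmt1 and 93.4% in scrambled. The count of Atp1b3 per Atp1b1 was 27.1 against 120, with wide intervals (16.5 to 47.9 and 51.2 to 372).

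Among the aquaporins, Aqp9 was by far the most abundant. This aquaglyceroporin, which passes glycerol and other small solutes as well as water, had 2066 counts in siDnmt1 and 1821 in scrambled. Its ratio of 1.13 (1.06 to 1.21) was the closest to 1 of the members with counts. Aqp3, another aquaglyceroporin, had 81 counts against 34. It was 2.38-fold higher in siDnmt1 (1.58 to 3.67), and 9.71% of compared genes were as high or higher. With a pseudocount of 20 in place of 5, its log2 ratio no longer reached 2-fold. Aqp8, a water and ammonia channel, had 0 counts in both libraries, and 3 counts per library is the upper limit that a count of 0 allows.

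The only other aquaporin with counts was Aqp11, an intracellular family member, at 142 counts against 73. Its ratio was 1.95 (1.46 to 2.62), and its log2 ratio of 0.91 passed 2-fold with equal totals without Rn45s (1.004) and with the trend on median transcript length removed (1.10). The other 8 listed aquaporins, Mip among them, had no count in either library. Per kb of the longest transcript, Aqp9 stood at 747 (siDnmt1) and 659 (scrambled), Aqp3 at 45.9 and 19.3, and Aqp11 at 24.5 and 12.6. The order of Aqp3 and Aqp11 depends on the length used. The longest transcript of Aqp11 has 5798 nt, but its median is 896 nt, shorter than the 1083 nt of Aqp3. With more counts than Aqp3, Aqp11 would stand above it on median lengths. On the longest transcripts Aqp9 held 91.4% and 95.4% of the aquaporin level. The count of Aqp9 per Aqp3 was 25.5 in siDnmt1 (20.4 to 32.3) and 53.6 in scrambled (38.2 to 77.6), a 2.10-fold difference (1.38 to 3.25).

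The claudins differed among themselves in direction. Cldn4, a sealing claudin of epithelia, had 627 counts in siDnmt1 and 1565 in scrambled. It was 2.50-fold lower in siDnmt1 (2.27 to 2.74), and 11.2% of compared genes were as low or lower. With the length trend removed its log2 ratio was -0.93, inside 2-fold, but it was -1.31 with a trend on the median in place of the longest transcript length. Cldn7, another epithelial claudin, had 157 counts against 82. It was 1.91-fold higher (1.46 to 2.53), with 14.8% of compared genes as high or higher, and its log2 ratio of 0.90 was just under the 2-fold rule. Cldn6, a claudin of embryonic epithelia, had 16 counts against 26, and the interval of its ratio (0.308 to 1.19) includes equality.

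Cldn4 and Cldn7, the claudin members with the most counts, thus differed in opposite directions. There were 19.1 counts of Cldn4 for each count of Cldn7 in scrambled (15.3 to 24.1) and 3.99 in siDnmt1 (3.35 to 4.79). The quantity was 4.78-fold lower in siDnmt1 (3.57 to 6.42), a value that does not depend on scaling. The transcripts are 1816 (Cldn4) and 1335 nt (Cldn7) long, and the trend with length, described below, gave log2 ratios of -0.38 and -0.75 for them, the lower one for Cldn7. The count of Cldn4 per Cldn6 (39.2 against 60.2) differed by 1.54-fold, with an interval (0.764 to 2.996) that includes equality.

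Per kb of the longest transcript, Cldn4 was the highest of the members in scrambled and stood behind Aqp9 in siDnmt1. It stood at 862 counts per kb in scrambled and 345 in siDnmt1. Cldn7 stood at 61.4 and 118. Cldn6 stood at 16.0 and 9.86. Cldn12, described below, stood at 25.3 and 14.7. Cldn4 alone made up 89.3% of these 4 claudins in scrambled and 70.8% in siDnmt1, while Cldn7 made up 6.37% and 24.1%. Their sum was 965 counts per kb in scrambled and 487 in siDnmt1. Cldn25, also described below, had 306 counts in scrambled and 188 in siDnmt1. No transcript length was found for it, so it is in neither the sum nor the shares.

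**Figure D2:**
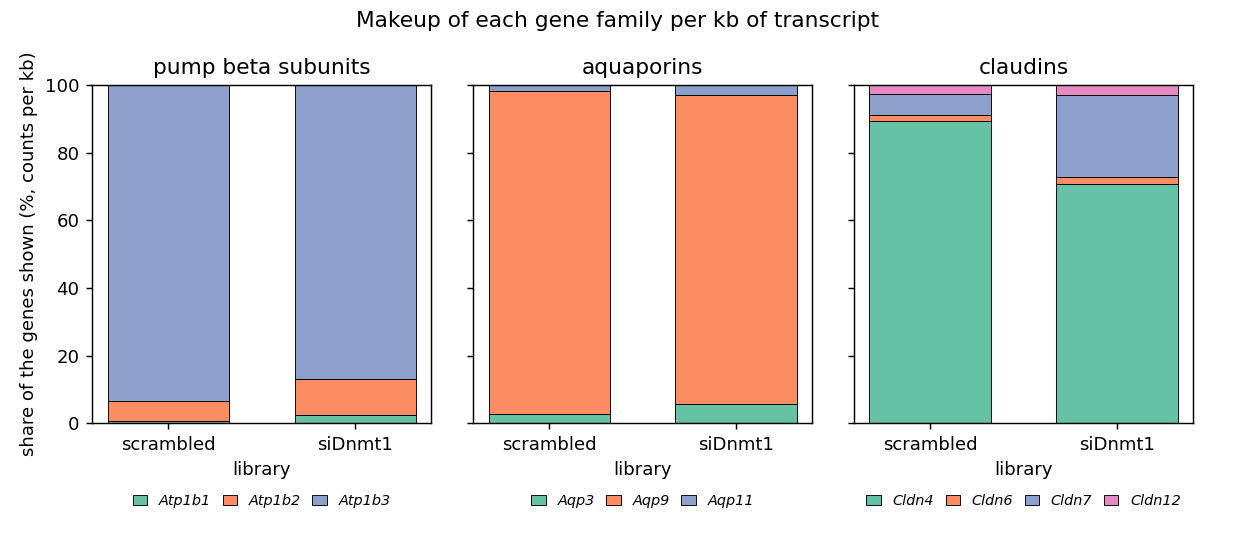
Share of each gene in the summed counts per kb of its family (percent, y axis) in the scrambled and siDnmt1 libraries, for 3 pump beta subunits, 3 aquaporins and 4 claudins; no error bars are drawn, since each bar is 1 library. Atp1b3 and Aqp9 hold most of the genes shown in both, while Cldn7 takes 24.1% of the 4 claudins in siDnmt1 against 6.37% in scrambled. Cldn25, without a known length, is left out.

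Of the 26 other claudins looked up, 22 were in the table and 13 of these had no count in either library. Only Cldn12 and Cldn25 passed the mean, with 0 of the 2 at least 2-fold apart. Cldn12, an unusual claudin that lacks a common scaffold-binding end, had 55 counts against 95, 1.73-fold lower (1.23 to 2.45). Cldn25 had 188 against 306, 1.63-fold lower (1.35 to 1.96), but the symbol has been used for 2 different genes, Cldnd1 and Cldn25-ps, so its identity is uncertain. Of the 5 claudins compared, Cldn4, Cldn6, Cldn12 and Cldn25 thus had ratios below 1 and Cldn7 a ratio above 1.

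Across families, the order of members per kb in scrambled was Cldn4, Aqp9, Atp1b3, Cldn7, Aqp3, Cldn6 and Atp1b1. In siDnmt1 it was Aqp9, Cldn4, Atp1b3, Cldn7, Aqp3, Cldn6 and Atp1b1. On these lengths only the top 2 changed places. Neighbours whose counting intervals overlapped were Aqp3 and Cldn6 in scrambled (19.3 and 16.0) and Cldn6 and Atp1b1 in siDnmt1 (9.86 and 6.20). The order rests on the longest annotated transcript of each gene: on the median transcript length, Aqp9 came first in both libraries (3787 counts per kb in siDnmt1 and 3338 in scrambled). Atp1b3 (802 and 1111) and then Cldn4 (345 and 862) followed, so no top places were exchanged.

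The other tight junction genes did not share 1 direction. Of 13 examined, 8 passed the mean, with a median log2 ratio of -0.67. Of these 8, 1 was past 2-fold upward and 2 downward, against 12.5% and 16.7% of all compared genes. Lower were Magi3 (30 counts against 122) and Magi1 (17 against 72), scaffold proteins of the junction plaque, at 4.07-fold (2.71 to 6.28) and 4.24-fold (2.47 to 7.67). Higher was Marveld2, which encodes tricellulin of tricellular contacts, with 129 counts against 60 (2.15-fold, 1.57 to 2.97), though not past 2-fold when the libraries were scaled to equal totals or with a pseudocount of 20. Cgn, the plaque protein cingulin, had 153 counts against 309 and missed the rule at a log2 ratio of -0.99. It passed with a pseudocount of 1 (-1.01), equal totals (-1.06) or the length trend removed (-1.12).

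The most abundant junction gene was F11r, which encodes the adhesion molecule JAM-A, with 6405 counts against 10085 (1.57-fold lower, 1.53 to 1.62). Cxadr, an adhesion protein of the same superfamily, had 410 counts against 660 (1.61-fold lower). The plaque protein gene Tjp1 had 2290 counts against 1637 (1.40-fold higher, 1.31 to 1.49). Ocln, occludin, had 52 counts against 50, with an interval that includes equality. Thus, of these 4 genes, the adhesion molecules F11r and Cxadr had ratios below 1, Tjp1 a ratio above 1, and Ocln could not be told from equality.

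Few of the other ion routes examined had counts. Of 9 genes for transporters, channels and an exchanger scaffold, 5 had no count in either library, and only Slc12a2 passed the mean. Slc12a2, the cotransporter of sodium, potassium and chloride, had 3767 counts against 1744 and was 2.16-fold higher (2.04 to 2.29), or 0.95 on the log2 scale with the length trend removed.

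Among 9 regulators of trophectoderm genes, 6 passed the mean. Of these, 0 were past 2-fold upward and 1 downward, against 12.5% and 16.7% of all compared genes. The one lower was Tfap2c, an AP-2 factor of the trophectoderm, with 282 counts against 577 (2.05-fold lower, 1.77 to 2.37). Its log2 ratio of -1.02 stood at the threshold and was -0.96 with the length trend removed and -1.12 with the trend on median length removed. Mapk14, the p38 kinase, had 1035 counts against 559 (1.85-fold higher), and Grhl2, an epithelial factor, 359 against 513 (1.43-fold lower). Tead4 (2455 against 2202) and Klf5 (484 against 475) had ratios of 1.11 and 1.02. Gata3 had 52 counts against 36, with an interval that includes equality. The count of Cldn4 per Tfap2c was 2.22 in siDnmt1 (1.93 to 2.57) and 2.71 in scrambled (2.46 to 2.99). This was 1.22-fold lower in siDnmt1, with a counting interval (1.02 to 1.45) that does not include equality. Transcript length does not cancel in this quantity. With the length trend removed, the log2 ratios of Cldn4 and Tfap2c were -0.93 and -0.96, nearly equal. With the trend on median transcript length removed they were -1.31 and -1.12.

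The 7 trophectoderm markers had a summed count of 443 in siDnmt1 and 824 in scrambled. Of the 5 that passed the mean, 3 were past 2-fold downward, against 16.7% of all compared genes, and 0 upward. They were Krt8 (50 against 124), Krt18 (19 against 56) and Tfap2c, and with the length trend removed their log2 ratios were -0.93, -0.68 and -0.96, inside 2-fold. Eomes had 32 counts against 28, Gata3 lay within 2-fold as given above, Cdx2 had 8 against 3, and Elf5 was at 0 in both. The part of these markers in the values of the members was not tested.

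**Figure D3:**
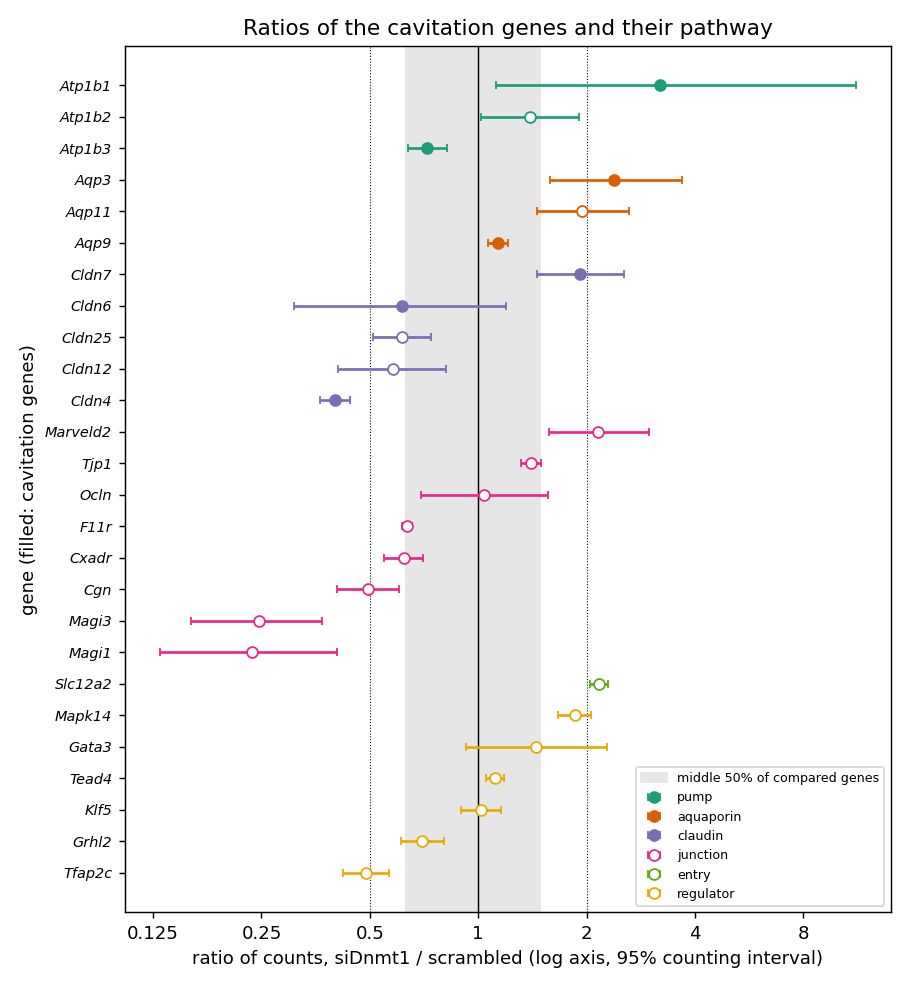
Ratio of counts, siDnmt1 over scrambled, on a log axis for the cavitation genes with counts (filled) and the listed pathway genes that passed a mean of 20 counts (open), coloured by role; bars are 95% counting intervals, dotted lines mark 2-fold and the grey band holds the middle 50% of compared genes. Cldn4 and Cldn7 lie on opposite sides of the band, and Magi1 has the lowest ratio plotted (0.236).

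Transcript length went with the ratio across all genes. The median log2 ratio was -0.57 over 875 genes with transcripts of 1000 to 2000 nt and 0.14 over 1984 genes of 4000 to 6000 nt. In the shorter class, 32.2% of genes were past 2-fold downward and 6.51% upward. Of the 6 members compared, 5 have transcripts in that shorter class, and the trend lay below 0 at each of them. Aqp9, at 2765 nt, lay outside it.

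With the length trend removed, the members that were higher stood further out and Cldn4 less far. The log2 ratio of Aqp3 went from 1.14 to 1.55 and that of Cldn7 from 0.90 to 1.65. That of Cldn4 went from -1.31 to -0.93, which is inside 2-fold. After removal, 94.95% and 95.8% of genes were at or below Aqp3 and Cldn7, and 15.2% were at or below Cldn4. Cldn6 (-0.05) and Atp1b3 (-0.18) then lay near 0, and Aqp9 was at 0.27. By this measure 2 members were at least 2-fold higher and 0 lower. The share of all genes past 2-fold after removal is not given here, so these numbers have no background. With a trend on the median transcript length instead, Aqp3 was at 1.33, Cldn7 at 1.06 and Cldn4 at -1.31, all past 2-fold. Why length and ratio go together in these libraries was not tested.

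**Figure D4:**
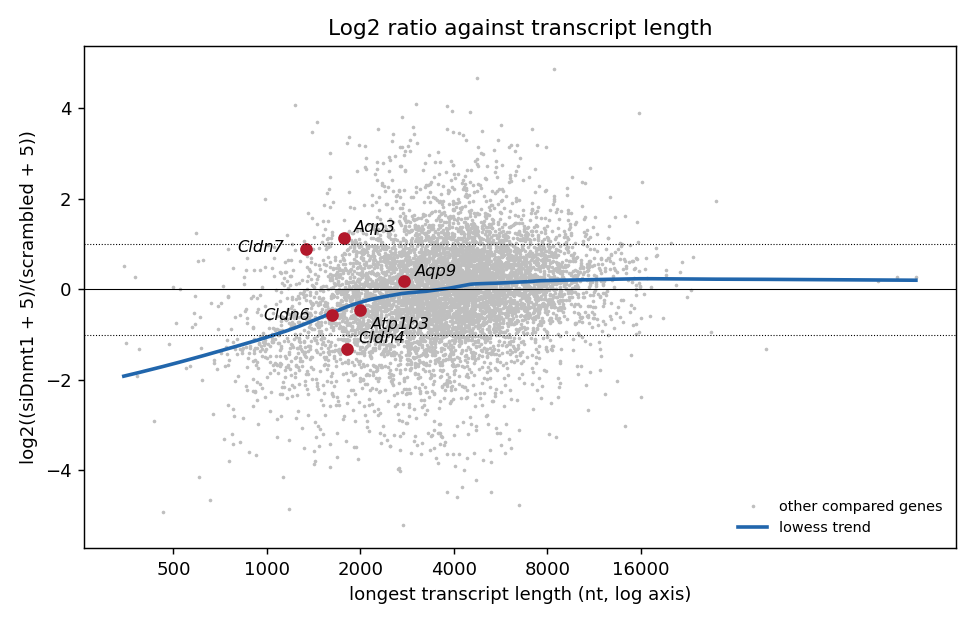
Log2 ratio of siDnmt1 over scrambled (y axis, pseudocount 5) against the longest transcript length (x axis, log) for compared genes with a known length, with the lowess trend in blue; red points are the 6 compared cavitation genes. Cldn7 and Aqp3 lie above the trend by 1.65 and 1.55, Cldn4 lies below it, and Cldn6 and Atp1b3 lie close to it.

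The genes nearest to each member in the plane of log2(count + 5) over the 2 libraries were also found. They were Rab1 for Atp1b3 (431 counts against 589), Lats2 for Aqp3 (81 against 35) and Rbm17 for Aqp9 (2125 against 1835). For Cldn4 the nearest was 4930432K21Rik (620 against 1606) and for Cldn7 it was Snd1 (157 against 81). Cldn6 had the same pair of counts as 3 other genes, Gm15698 among them. The distances lay between 0 and 0.04 on the log2 scale. A likeness over 2 libraries places a gene at a similar level and ratio and says no more.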

How the data were processed

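Polyadenylated RNA from 1 pool of 20 embryos per group was sequenced from both ends after pico-profiling, per the labels' protocols. The submitters' processing notes name the build mm9 and, without versions, HISAT2, HTSeq, DESeq2 and Trim Galore. The deposited table holds whole-number counts per gene that the labels describe as DESeq2-normalised. From 1 to 59, 0 whole numbers were skipped, and no low value was more than 1.23 (siDnmt1) or 1.29 (scrambled) times as frequent as its neighbours, so the values were treated as unscaled counts. A small scaling, or one by a whole divisor, would not be seen this way.

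With 1 library per group, and so 0 residual degrees of freedom, edgeR's quasi-likelihood test has nothing to fit and the text gives no p-values. Ratios are plain ratios of counts with exact 95% Clopper-Pearson intervals, per-kb levels have Poisson intervals, and ratios of 2 genes have exact conditional intervals of the odds ratio. The log2 ratio used a pseudocount of 5, a mean of at least 20 counts and a 2-fold rule. Lengths are of the longest GENCODE M21 transcript (GRCm38), found for 99.4% of compared genes. The length trend was a lowess curve with a span of 0.3. Promoter windows are from RefSeq. The genes named were all 8 members, Dnmt1, Rn45s and every gene of the fixed pathway lists with a mean of at least 20 counts. Marker lists are given by sums and counts, with some members named after their values were seen. Some genes that this rule takes were left out of the lists and their counts and are not named in the text. Members and lists were chosen with earlier results of these data known. The intervals and the size rule were tested on simulated data, whose outcome is not given here. Simulated data cannot stand in for replicate pools of embryos. Scripts ran in Python 3.11.15 with scipy 1.17.1, pandas 2.3.3 and statsmodels 0.14.6, and TMM factors came from edgeR 4.0.16 in R 4.3.3.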

Additional observations from a re-analysis of the deposited data

How the results depend on the processing

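No paired analysis was possible because each group has 1 library, and for the same reason no replicate could be left out. Each of the 6 compared members was recomputed with pseudocounts of 1 and 20, 4 other scalings and removal of the length trend. No member changed sign in these. Scaling to equal totals without Rn45s moved Aqp9 to a log2 ratio of 0.28, outside its counting interval. Removing the length trend moved Atp1b3 to -0.18, Cldn4 to -0.93 and Cldn7 to 1.65. A trend on the median transcript length, added after the data were seen, gave -0.24 for Atp1b3 and 0.40 for Aqp9, while Aqp3 (1.33), Cldn7 (1.06) and Cldn4 (-1.31) were past 2-fold. The members at least 2-fold higher numbered 0 with a pseudocount of 20, 2 with the length trend removed (0 lower), 2 with no filter on low counts, 0 at a mean of at least 100 counts and 0 by a 4-fold rule (0 lower). The members at least 2-fold lower numbered 1 with a pseudocount of 20, with no filter and at a mean of at least 100 counts. Over all genes, 1681 were higher and 2122 lower without the filter, 395 and 482 at a mean of 100, and 193 and 330 at 4-fold. The 4-fold numbers are out of the same 7315 genes. How many genes were compared without the filter or at a mean of 100 is not given here, so those numbers give no share. With a pseudocount of 20, 679 of the 7315 were higher and 937 lower. No number over all genes is given for the length trend removed. The 4 scalings left the median log2 ratio between -0.09 and 0.06. On the median transcript length, levels per kb in siDnmt1 and scrambled were 25.7 and 8.03 for Atp1b1, 802 and 1111 for Atp1b3, 74.8 and 31.4 for Aqp3, 3787 and 3338 for Aqp9 and 188 and 98.2 for Cldn7. Of the pathway genes, Tfap2c was no longer 2-fold lower with a pseudocount of 20, with the length trend removed or under 2 scalings (equal totals without Rn45s, a median of 0). Marveld2 was no longer 2-fold higher with a pseudocount of 20, equal totals or the trend on median length removed, nor Slc12a2 with either trend removed. Cgn came past 2-fold lower with a pseudocount of 1, equal totals or either trend removed, and Aqp11 past 2-fold higher with equal totals without Rn45s or the trend on median length removed. Depth limits Atp1b1, Cldn6 and Aqp8, which rest on few counts or none.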

Other observations

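Some pathway genes below the mean of 20 counts were nearly confined to 1 library, and they were chosen after their values were seen. The share of all genes below that mean with such counts is not given here, so these values have no background. Cldn19, a claudin of the kidney and retina, had 0 counts in siDnmt1 and 18 in scrambled. With the 0 set to a floor of 3 counts this is 6-fold lower. Folds taken at this floor have no interval and are not lower limits, since the other count has counting error too. Tfap2a, a second AP-2 factor, had 0 against 12, and Slc9a3, an apical sodium and proton exchanger, 0 against 15. At the same floor these are 4-fold and 5-fold lower. In the other direction, Scnn1a, the alpha subunit of the epithelial sodium channel, had 9 counts against 0, 3-fold higher at that floor. Grhl1 had 4 counts against 18 (4.50-fold lower, 1.48 to 18.3), and Jam3 had 3 against 15.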
